A study of Mus musculus with 6 samples.

Results

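The Rab GTPases are small membrane-bound switches, and their messenger RNA was measured here in the hippocampus of WT mice and of mice with an induced neuronal knockout of the microRNA-processing enzyme Dicer1. Genes were taken by symbol, as Rab followed by a number and optional lower-case letters, leaving out the names of Rab regulators and effectors; for each gene the most counted transcript, by its mean over the 6 libraries, stands for the gene. The rule found 59 genes among 25896 listed symbols. Of these, 57 are Rab GTPases, and 2, Rab3ip and Rab3il1, are exchange factors that activate Rabs and match by name alone; they are kept apart below. There were 3 libraries labelled WT and 3 labelled DICER1-ifKO, each made from the pooled hippocampal RNA of 3 male mice, so that 9 mice per genotype entered the libraries, while the design text gives 12. All mice were C57BL/6, 3 months old, carried Dicer1 flox/flox alleles and had received tamoxifen 3 weeks before sacrifice; the WT mice had no Cre, and the DICER1-ifKO mice carried CaMKIIa-creERT2. That transgene puts a tamoxifen-activated Cre under the CaMKIIa promoter, which is active in excitatory forebrain neurons, while glia, vessels and inhibitory neurons contribute RNA to the same tissue samples in both genotypes. The comparison asks how loss of Dicer1 in adult excitatory neurons alters hippocampal RNA.

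A Rab protein alternates between a GDP-bound form, which GDP dissociation inhibitors hold in the cytosol, and a GTP-bound form, which sits on one membrane and recruits effectors such as motors, tethers and fusion factors. Exchange factors switch Rabs on, GTPase-activating proteins switch them off, and geranylgeranyl transferase with an escort protein adds the lipid tail by which they hold the membrane. In neurons, Rab3 proteins mark synaptic vesicles, Rab5 and Rab4 early endosomes, Rab11 recycling endosomes that supply receptors to spines, and Rab7 late endosomes moving along axons and dendrites. MicroRNAs, which Dicer1 cuts from hairpin precursors, pair through bases 2 to 8, the seed, mostly with 3′ UTRs and lower the level or translation of the messenger RNA.

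A library held between 11832791 and 20677846 counts on the transcripts used; 3 counts correspond to 0.146 to 0.255 CPM, the count relative to the library's total after TMM normalisation. WT replicate 1 was the shallowest library and stood at one end of the first principal component (30.4% of the variance). Dicer1 itself was at 55.6 to 62.0 CPM in WT and 58.0 to 63.0 CPM in DICER1-ifKO, with a log2 difference (DICER1-ifKO against WT, from edgeR) of 0.04; the count covers the whole transcript and the labels do not say which exons are floxed, so it does not check the genotype. Reads assigned to Esr1, the estrogen receptor whose ligand-binding domain is a component of creERT2 proteins, were at 3.26 to 4.78 CPM in WT and 10.1 to 13.7 CPM in DICER1-ifKO, for a log2 difference of 1.57 (SE 0.15, adjusted p = 7.52e-06). Marker genes of excitatory pyramidal neurons were present at 5368 to 5515 CPM in sum in WT and 5494 to 5873 CPM in DICER1-ifKO. Camk2a was the largest part, at 3279 to 3393 CPM in WT and 3497 to 3713 CPM in DICER1-ifKO. Of these 10 markers 5 were positive and 5 negative, and none was below an adjusted p of 0.05 by edgeR. The most negative was Pcp4, with a log2 difference of -0.16 and overlapping libraries. The sums of the 8 dentate granule cell markers did not overlap, at 509 to 531 CPM in WT and 466 to 501 CPM in DICER1-ifKO, with 1 of the 8 (Calb1) below an adjusted p of 0.05. Calb1 was at 127 to 135 CPM in WT and 102 to 116 CPM in DICER1-ifKO. The 8 did not move together: 6 were negative and 2 positive. Plk5 was higher in each DICER1-ifKO library, with a log2 difference of 0.31, and Prox1 had 0.01. The sums of the 8 astrocyte markers did not overlap either, at 3411 to 3596 CPM in WT and 3631 to 3783 CPM in DICER1-ifKO, with none below an adjusted p of 0.05. Slc1a2 was the largest part, at 1799 to 2030 CPM in WT and 2050 to 2213 CPM in DICER1-ifKO. Of the 8, 5 were positive and 3 negative, and Aqp4 was lower in each DICER1-ifKO library, with a log2 difference of -0.16. The sums of the other lists, for inhibitory neurons, oligodendrocytes, microglia, endothelium, choroid plexus, thalamus and striatum, and erythrocytes, overlapped. The part of these differences in the Rab values was not tested, and in such bulk tissue fewer cells of a type and less RNA per cell cannot be told apart.

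No Rab-named gene passed the test between DICER1-ifKO and WT. Of the 59 genes, 55 had enough counts to be tested (53 GTPases and both exchange factors), and 0 of them were called, that is, had an adjusted p below 0.05 by the quasi-likelihood test of edgeR. Over all 17405 genes tested 28 were called, or 0.161% (0.126% higher and 0.0345% lower in DICER1-ifKO). At an unadjusted p under 0.05 there were 9 of the 55 (16.4%), beside 10.4% of all genes tested; 4 of them were higher in DICER1-ifKO and 5 lower, beside 5.63% and 4.8% of all genes. DESeq2 gave an adjusted p to 20 of the 55, called 0 of them beside 2.05% of the 3908 genes to which it gave one, and had 6 members at an unadjusted p under 0.05. The log2 fold changes of the members ran from -0.27 to 0.20, that is from 0.829-fold to 1.15-fold. The 95% interval of the difference lay within 1.25-fold either way for 46 of the 55 and within 1.5-fold for 54, so that larger differences lie outside the intervals of those genes. The member not within 1.5-fold was Rab38, at 1.21 CPM on average the least abundant member tested.

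Without WT replicate 1, the library that stands apart, 0 members were called and the median was -0.03, as with it. The direction was unequal among the members. The log2 fold change was negative in 37 of the 55 (67.3%), beside 51.0% of all genes tested, and the median was -0.03 against -0.00. The libraries of the genotypes did not overlap in 15 members (27.3%), beside 16.1% of all genes. In 12 of them (21.8% of the 55) all 3 DICER1-ifKO libraries lay below all 3 WT libraries, beside 8.07% of all genes; these were Rab26, Rab44, Rab2a, Rab5a, Rab3ip, Rab8b, Rab23, Rab14, Rab9, Rab33b, Rab8a and Rab4b. In 3 members (5.45%), Rab15, Rab6b and Rab3d, all 3 DICER1-ifKO libraries lay above all 3 WT libraries, beside 7.99% of all genes. The family's total was close between genotypes: the CPM of the 57 GTPases summed to 4907 ± 53.5 (SD, n = 3) in WT and 4847 ± 45.5 in DICER1-ifKO, with single libraries of the groups overlapping. Fold changes across all genes had a weak relation to transcript length in these libraries (Spearman's rho 0.204 over 16709 genes, which are not independent of each other); over the 55 members it was 0.132, and 0.0521 without WT replicate 1.

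**Figure D1:**
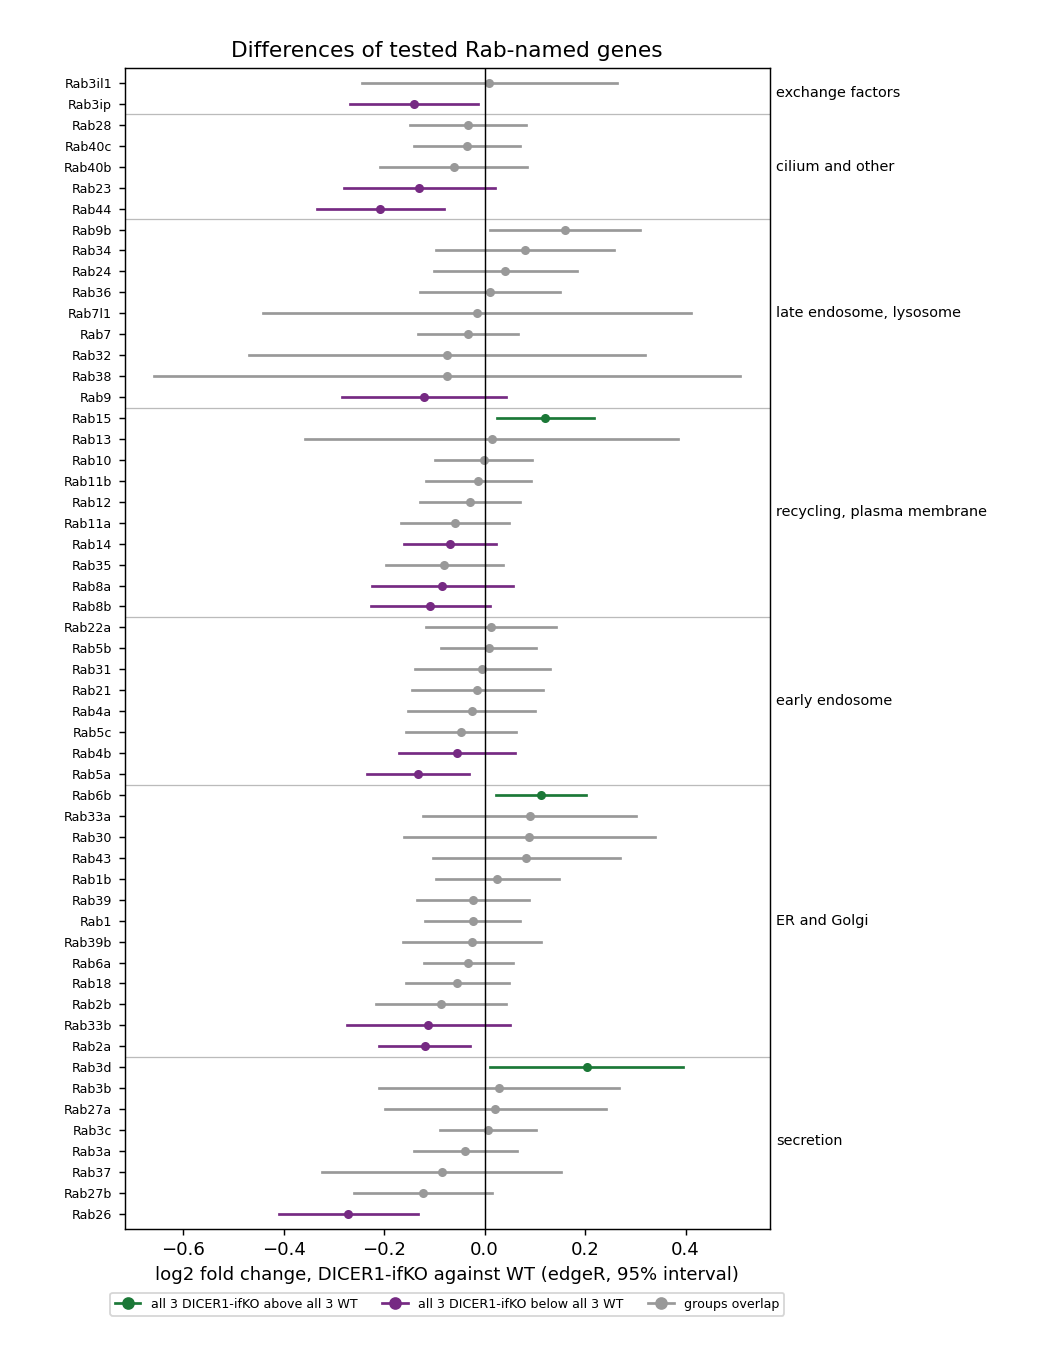
Log2 fold change of DICER1-ifKO against WT (horizontal axis, edgeR, with its 95% interval) for the 55 tested Rab-named genes, grouped by role. Green marks the 3 genes whose 3 DICER1-ifKO libraries lie above all WT libraries, purple the 12 whose DICER1-ifKO libraries lie below, and grey the overlapping groups; 37 of the 55 points lie left of 0.

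MicroRNA sites give the sequence context of these genes, since mature microRNAs are what the deleted enzyme makes. Seed matches of 14 microRNAs that are abundant in brain were looked up in the 3′ UTRs of 54 members, on the transcript strand, as exact matches to the 7 bases opposite the seed. The mature sequences, from RefSeq, of the 3 whose sites are shown next are given with the seed in capitals.
mmu-miR-9-5p: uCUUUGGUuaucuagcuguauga
mmu-miR-30a-5p: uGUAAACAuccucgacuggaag
mmu-miR-34a-5p: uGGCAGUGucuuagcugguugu
A site of miR-9-5p reads ACCAAAG. That of miR-30a-5p is TGTTTAC, and a match to miR-34a-5p is spelled CACTGCC. The following stretches of the UTRs (GRCm38, written 5′ to 3′ along the transcript) belong to members with an unadjusted p under 0.05 and have the match in capitals; the sites of miR-30a-5p and of miR-34a-5p are each shown in genes with positive and with negative differences.
Rab15, site of miR-9-5p, chr12:76799349-76799376, minus strand: cgaggtctgaggacACCAAAGggcaagg
Rab9b, site of miR-9-5p, chrX:136860474-136860501, minus strand: tttatgtcatttctACCAAAGggaaaat
Rab15, site of miR-30a-5p, chr12:76797978-76798005, minus strand: attttaaacacaaaTGTTTACaaaataa
Rab2a, site of miR-30a-5p, chr4:8607599-8607626, plus strand: agaaaagttttagtTGTTTACtcactgt
Rab3d, site of miR-34a-5p, chr9:21908319-21908346, minus strand: ggctcatctgaagaCACTGCCaccaagc
Rab6b, site of miR-34a-5p, chr9:103182557-103182584, plus strand: aacgctcccggactCACTGCCcctgtct
Rab44, site of miR-34a-5p, chr17:29148631-29148658, plus strand: cttactggctcacaCACTGCCtaatgct

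For each of the 3 microRNAs whose sites are shown, members with a site had log2 fold changes of both signs. Among the 14 searched, miR-137-3p was the exception. Its match was in 4 members (7.41%, beside 9.87%), 0 of them positive, with a median of -0.08, beside 0.02 for all genes with the site. The miR-30a-5p match was in 15 of the 54 members (27.8%), beside 14.8% of the 13889 tested genes with a 3′ UTR, and 2 of these 15 were positive (median -0.06); genes with the site had a median of 0.01 overall. A miR-9-5p match was in 9 members (16.7%, beside 13.4%), 6 of them positive, with a median of 0.08, beside 0.02 for all genes with the site. The miR-34a-5p match was in 10 members (18.5%, beside 16.3%), 4 of them positive. Rab6b had matches to 8 of the 14 seeds, the most of any member, in a UTR of 4030 bases. Rab26 and Rab5a, both lower in DICER1-ifKO, had none, in UTRs of 554 and 1251 bases. Over the 52 tested GTPases with a UTR the number of seeds matched followed UTR length (rho 0.605), and its rank correlation with the log2 fold change was 0.127. A match is a description of letters and does not show that the microRNA acts there. The UTRs searched are those of the annotated transcripts, which for some members are the nearest and not the counted ones. The miR-9-5p match of Rab30 and the miR-30a-5p match of Rab21 lie beyond the end of the counted transcript. The counts and medians per microRNA therefore describe annotated UTRs and include matches that the counted transcripts may lack.

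The level of Rab messenger RNA was carried by few genes. In CPM averaged over the 6 libraries, Rab6a was highest, at 499.6 ± 11.5 CPM in WT and 488 ± 5.02 CPM in DICER1-ifKO (SD, n = 3 libraries). In DICER1-ifKO alone Rab6b was above it, at 509 ± 2.91 CPM, against 471 ± 13.3 CPM in WT. On average 13 GTPases were above 100 CPM, 33 between 10 and 100, 7 between 1 and 10, and 4 below 1. A longer transcript collects more reads, so levels of different genes are compared as CPM per kilobase of the transcript. On that scale 8 of the 57 GTPases held 52.7% of the family: Rab3a, Rab6a, Rab2a, Rab7, Rab6b, Rab11b, Rab18 and Rab14. The lengths of Rab11b, Rab18 and Rab6b are those of the nearest annotated transcript, whose ends differ from the counted one by 1024, 1006 and 273 bases in all; for the first 2, with lengths of 1544 and 1184 bases, this could move the level by over 1.5 times, so their place among the 8, and the share itself, are uncertain. Rab3a, the main Rab of synaptic vesicles, was at 244 ± 10.8 in WT and 237 ± 13.1 in DICER1-ifKO CPM per kilobase, above Rab6a at 191 ± 4.39 in WT and 187 ± 1.92 in DICER1-ifKO. Rab2a followed at 141 ± 3.01 in WT and 129.6 ± 2.26 in DICER1-ifKO, and Rab7 at 111 ± 5.24 in WT and 108 ± 4.28 in DICER1-ifKO. Rab6b was below Rab7 in WT beyond the spread of the libraries, at 94.2 ± 2.65 in WT and 102 ± 0.581 in DICER1-ifKO; in DICER1-ifKO the distance between them was less than that between their WT means. Rab11b (88.8 ± 2.67 in WT and 87.9 ± 4.66 in DICER1-ifKO) and Rab18 (88.4 ± 1.16 in WT and 85.2 ± 3.63 in DICER1-ifKO) differed by less than their SD in each genotype on these lengths. Each role kept nearly the same share of the per-kilobase total: Rabs of the endoplasmic reticulum and Golgi took 35.3% in WT and 35.4% in DICER1-ifKO, recycling Rabs 19.4% and 19.7%, secretory Rabs 17.7% and 17.5%, early endosomal Rabs 12.2% and 12.1%, late endosomal Rabs 9.90% and 10.1%, and the remaining Rabs 5.42% and 5.29%.

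**Figure D2:**
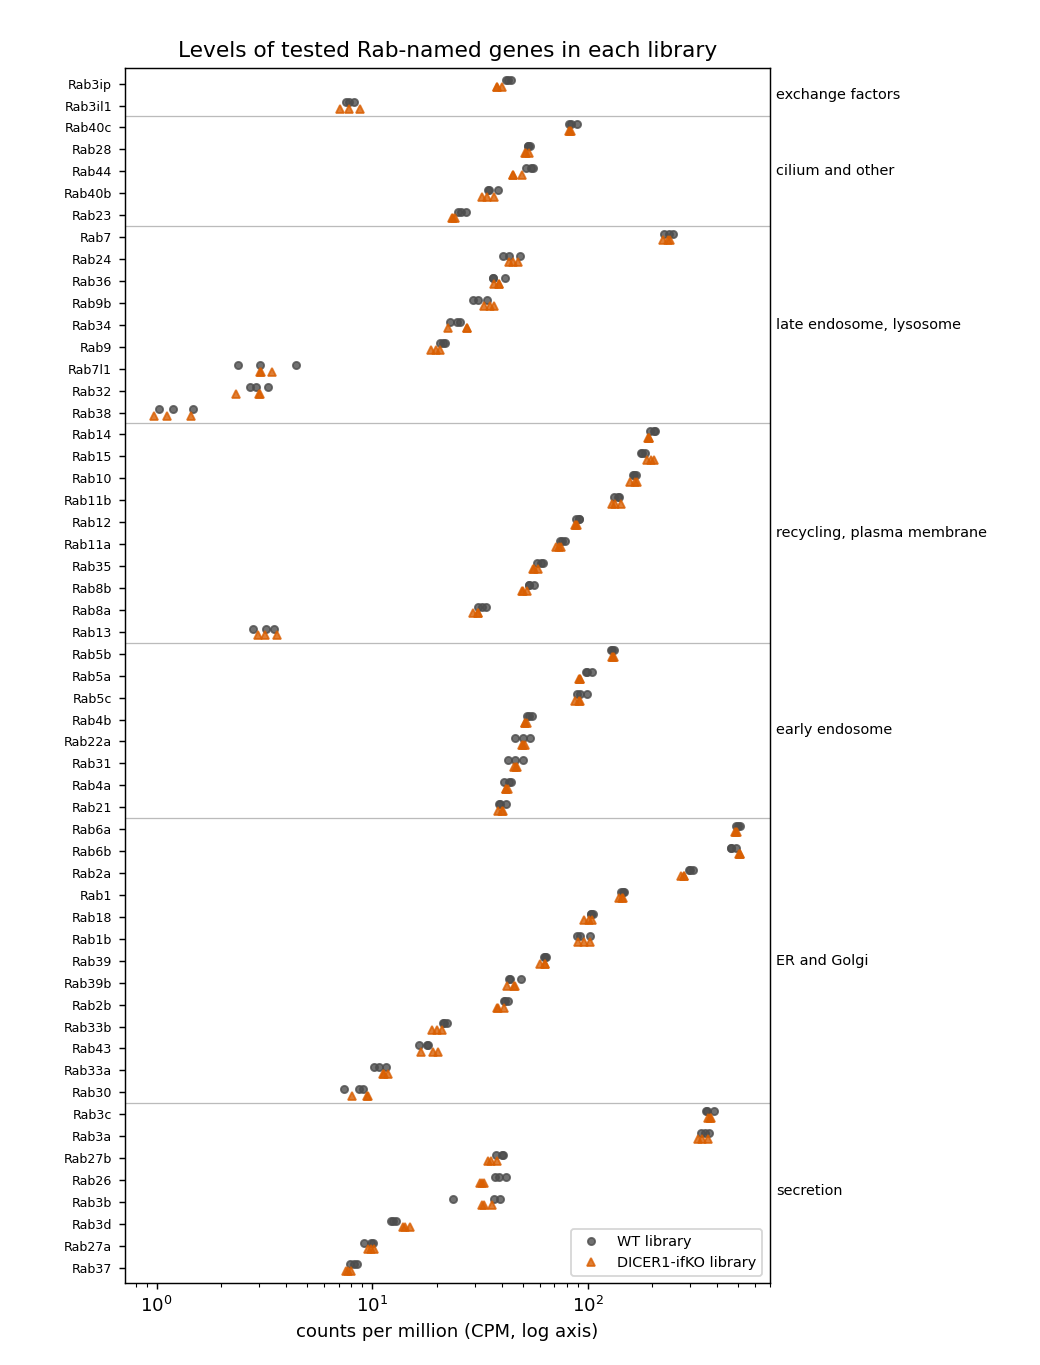
CPM (horizontal log axis) of the 55 tested Rab-named genes in each library, with WT libraries as circles and DICER1-ifKO libraries as triangles, grouped by role. Levels run from a mean of 1.21 CPM for Rab38 to 494 CPM for Rab6a, and for most genes the 6 libraries lie close together.

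Among the 8 Rabs of regulated secretion, 2 (25%) had an unadjusted p under 0.05 by the edgeR test, beside 10.4% of all genes. Of the 8, 4 were negative, beside 51.0% of all genes, with a median log2 fold change of -0.02. Rab26 sits on synaptic and secretory vesicles and has been linked to their delivery to autophagosomes (chr17:24527241-24533726, minus strand). Its level was 41.8, 38.9 and 37.0 CPM in WT and 33.1, 32.5 and 31.7 CPM in DICER1-ifKO, in the order of replicates 1, 2 and 3 that is used throughout. All 3 DICER1-ifKO libraries lay below the WT libraries, and the log2 difference, -0.27 (SE 0.066, adjusted p = 0.119), had the smallest p of the family. It was the member whose call depended on a setting: with no filter on low counts its adjusted p was 0.0445, beside 0.673% of 22441 genes called in that fit, and over the 12 alternatives that gave one (DESeq2 did not) it ran from 0.0445 to 0.383. Part of the count could belong to a neighbour, since 267 of the 1291 exon bases of the counted transcript (20.7%) also lie in exons of Traf7 on the same strand, a gene with a log2 difference of 0.04. Rab26 transcripts that end before Traf7 gave log2 fold changes of -0.29 (Rab26-001 and Rab26-003) and -0.33 (Rab26-004), close to the -0.29 of the overlapping transcript in the same fit over transcripts.

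The Rab3 genes, which act in docking and release of synaptic vesicles, had no common direction. Rab3a was at 367, 336 and 352 CPM in WT and 339.5, 325 and 362 CPM in DICER1-ifKO, and Rab3c, its neuronal relative, at 361, 386 and 353 CPM in WT and 362, 375 and 369 CPM in DICER1-ifKO. For both the libraries of the genotypes overlapped, with log2 differences of -0.04 (SE 0.049, adjusted p = 0.841) and 0.01 (SE 0.046, adjusted p = 0.979). Rab3b was at 39.3, 23.9 and 36.9 CPM in WT and 33.2, 35.9 and 32.3 CPM in DICER1-ifKO. WT replicate 2 was far below the other WT libraries and made Rab3b the member with the largest relative spread in WT (coefficient of variation 24.9%) among the 51 members above 5 CPM. The log2 difference of Rab3b was 0.03 (SE 0.12, adjusted p = 0.958), and -0.17 without that library. Rab3d, better known from secretory granules of exocrine and other cells, was at 12.9, 12.5 and 12.3 CPM in WT and 13.9, 14.3 and 15 CPM in DICER1-ifKO. Its DICER1-ifKO libraries were all above the WT libraries, by a log2 difference of 0.20 (SE 0.093, adjusted p = 0.451). Rab27b, which acts in the exocytosis of granules and vesicles, was at 39.9, 40.5 and 37.4 CPM in WT and 34.3, 38.1 and 35.7 CPM in DICER1-ifKO; the highest DICER1-ifKO library exceeded the lowest WT library, and the log2 difference was -0.12 (SE 0.066, adjusted p = 0.543). Rab27a and Rab37 were at 9.70 and 8.22 CPM on average in WT, with log2 differences of 0.02 and -0.09.

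Rabs of the endoplasmic reticulum and Golgi included the family's most counted genes. By the edgeR test 2 of 13 (15.4%, beside 10.4% of all genes) had an unadjusted p under 0.05, in opposite directions. Rab2a, which acts between the endoplasmic reticulum and the Golgi (chr4:8535644-8607778, plus strand), was at 299, 307 and 295 CPM in WT and 279, 271 and 279 CPM in DICER1-ifKO. Each DICER1-ifKO library was below each WT library, with a log2 difference of -0.12 (SE 0.043, adjusted p = 0.32). Rab6b, the neuron-enriched form of a Golgi Rab that recruits motor adaptors (chr9:103112074-103185270, plus strand), was at 464, 487 and 463 CPM in WT and 510.1, 512 and 506 CPM in DICER1-ifKO. Here the DICER1-ifKO libraries were all above the WT libraries and close together, with a log2 difference of 0.11 (SE 0.043, adjusted p = 0.345). Its widely expressed relative Rab6a was at 499, 511 and 488 CPM in WT and 483, 489 and 493 CPM in DICER1-ifKO, overlapping between genotypes, with a log2 difference of -0.03 (SE 0.043, adjusted p = 0.843). The difference between the changes of the 2 Rab6 genes was not tested. The other members of the group, Rab1, Rab1b, Rab2b, Rab18, Rab30, Rab33a, Rab33b, Rab39, Rab39b and Rab43, ran from -0.11 (Rab33b, a Golgi Rab that binds an autophagy protein, lower in all DICER1-ifKO libraries) to 0.09 (Rab33a), and each had an unadjusted p above 0.05. Of Rab43, 90.4% of exon bases lie in another annotated gene on the same strand, and of Rab2b 70.9% in one on the opposite strand, so their reads may not be theirs alone. Rab19 had 1 to 5 counts per library and was not tested.

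Early endosomal Rabs had sums in DICER1-ifKO below those in WT, with Rab5a as the largest single change. The summed level of the 10 genes was 562, 560.1 and 554 CPM in WT and 542, 549 and 543 CPM in DICER1-ifKO, without overlap. That sum includes Rab5a and does not show a shift of the group apart from it. Of the 8 genes tested, 6 were negative, beside 51.0% of all genes, and only Rab5a and Rab4b did not overlap between genotypes (25%, beside 16.1% of all genes). By the edgeR test 1 had an unadjusted p under 0.05. That gene was Rab5a, which drives fusion of endocytic vesicles with early endosomes (chr17:53479234-53507671, plus strand), at 98.2, 105 and 99.7 CPM in WT and 91.6, 92.6 and 92.6 CPM in DICER1-ifKO. Its DICER1-ifKO libraries were nearly equal to each other and all below WT, with a log2 difference of -0.13 (SE 0.049, adjusted p = 0.324). Of the other Rab5 genes, Rab5c was at 99.2, 89.2 and 92.0 CPM in WT and 87.1, 92.4 and 91.2 CPM in DICER1-ifKO, overlapping, with a log2 difference of -0.05 (SE 0.053, adjusted p = 0.809), and Rab5b had a log2 difference of 0.01. Rab4b, a Rab of fast recycling, was at 55.0, 52.6 and 53.3 CPM in WT and 52.3, 51.5 and 51.1 CPM in DICER1-ifKO, lower in each DICER1-ifKO library, with a log2 difference of -0.05 (SE 0.056, adjusted p = 0.791); 85.2% of its exon bases also lie in another annotated gene on the same strand. Rab4a, Rab21, Rab22a and Rab31 lay between -0.03 and 0.01. Rab17, an epithelial Rab, had no counts in 5 libraries and 1 in the other, and Rab20 had 3 to 7 counts per library; neither was tested.

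Of the recycling and plasma membrane Rabs, 8 of 10 tested were negative, beside 51.0% of all genes, with a median log2 fold change of -0.04. The gene with an unadjusted p under 0.05 by edgeR (10% of the group, beside 10.4% of all genes) was one of the positive ones. Rab15, a brain-enriched endosomal Rab (chr12:76797960-76822553, minus strand), was at 177, 185 and 179 CPM in WT and 203, 188 and 198 CPM in DICER1-ifKO. Its DICER1-ifKO libraries were all above WT, by a log2 difference of 0.12 (SE 0.046, adjusted p = 0.342), and by 0.11 without WT replicate 1. Rab8b, which carries cargo from the Golgi and endosomes to the plasma membrane, was at 53.6, 56.5 and 53.4 CPM in WT and 49.5, 52.2 and 50.1 CPM in DICER1-ifKO. These groups did not overlap, and the log2 difference was -0.11 (SE 0.057, adjusted p = 0.536). Rab14, which moves cargo between the Golgi and endosomes, was at 205, 203 and 196 CPM in WT and 192, 190.1 and 194 CPM in DICER1-ifKO, again lower in each DICER1-ifKO library, with a log2 difference of -0.07 (SE 0.044, adjusted p = 0.644). Rab8a was also lower in each DICER1-ifKO library, with a log2 difference of -0.08, but the groups nearly touched. Its lowest WT library was at 31.16 CPM and its highest DICER1-ifKO library at 31.15 CPM. Rab11b, the Rab11 form enriched in brain, was at 139.8, 132 and 139 CPM in WT and 129, 134 and 144 CPM in DICER1-ifKO; the groups overlapped and the log2 difference was -0.01 (SE 0.050, adjusted p = 0.959). Rab10, Rab11a, Rab12, Rab13 and Rab35 lay between -0.08 and 0.01. Rab25, an epithelial Rab11 relative, had 0 to 4 counts per library and was not tested.

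Late endosomal and lysosomal Rabs were centred near 0, with 5 of 9 negative, beside 51.0% of all genes, and a median of -0.02. Rab7, which takes late endosomes to lysosomes, was at 250.0, 227 and 239.5 CPM in WT and 240.2, 223 and 237 CPM in DICER1-ifKO, overlapping, with a log2 difference of -0.03 (SE 0.048, adjusted p = 0.86); 9.45% of its exon bases lie in Gm5577 on the opposite strand, which was counted at a like level. Rab9b, a relative of the Rab9 that acts in traffic from endosomes to the Golgi (chrX:136858147-136868755, minus strand), was at 31.0, 34.1 and 29.5 CPM in WT and 35.4, 33.3 and 37.0 CPM in DICER1-ifKO. WT replicate 2 reached above DICER1-ifKO replicate 2, so the groups overlapped; the log2 difference was 0.16 (SE 0.072, adjusted p = 0.442). Rab9 itself was lower in each DICER1-ifKO library, with a log2 difference of -0.12, while Rab9b was positive. Rab24, an autophagy-linked Rab, was at 43.2, 40.7 and 48.4 CPM in WT and 47.7, 43.4 and 45.3 CPM in DICER1-ifKO, overlapping, with a log2 difference of 0.04 (SE 0.069, adjusted p = 0.879). In its nearest annotated transcript 58.1% of exon bases lie in Prelid1 on the opposite strand. The ends of that transcript differ from the counted one by 554 bases in all, so the share is uncertain. Rab32, Rab34, Rab36, Rab38 and Rab7l1 (also called Rab29) lay between -0.07 and 0.08, with the widest intervals for Rab38, Rab7l1 and Rab32, all below 5 CPM.

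All 5 of the remaining Rabs, of the cilium and of other places, were negative, beside 51.0% of all genes. As single genes, 2 (40%, beside 16.1% of all genes) did not overlap between genotypes. The sum of the 5 did not overlap, at 257, 249.6 and 257 CPM in WT and 241, 235 and 245 CPM in DICER1-ifKO. That sum includes Rab44, at 54.0 CPM on average in WT and 46.7 CPM in DICER1-ifKO, and does not show a shift of the group apart from it. Rab44, a long Rab with EF-hand and coiled-coil regions known from immune cells (chr17:29135056-29148980, plus strand), was at 54.6, 51.9 and 55.6 CPM in WT and 44.9, 45.3 and 49.8 CPM in DICER1-ifKO. Every DICER1-ifKO library was below every WT library, with a log2 difference of -0.21 (SE 0.061, adjusted p = 0.198). The long transcript of Rab44 (4105 bases) and its short one (788 bases) had equal counts in all 6 libraries, so the counts do not tell the transcripts apart, and the level of Rab44 per kilobase depends on which length is used. The long transcript thus had no counts beyond those of the short one. The short one ends at 29148243, before the miR-34a-5p site shown above, so the counts do not show that this part of the UTR is present. Rab23, which restrains hedgehog signalling and acts at the primary cilium, was at 25.8, 27.3 and 25.1 CPM in WT and 24.3, 23.5 and 23.8 CPM in DICER1-ifKO, lower in each DICER1-ifKO library, with a log2 difference of -0.13 (SE 0.072, adjusted p = 0.564). Rab40c, a Rab with a SOCS box that recruits a ubiquitin ligase, was at 89.3, 82.5 and 84.0 CPM in WT and 84.0, 82.5 and 83 CPM in DICER1-ifKO. Rab28, found at cilia, was at 53.1, 53.0 and 54.3 CPM in WT and 53.4, 51.5 and 51.9 CPM in DICER1-ifKO. Both overlapped between genotypes, with log2 differences of -0.03 (SE 0.051, adjusted p = 0.861) and -0.03 (SE 0.055, adjusted p = 0.878), and Rab40b had -0.06.

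**Figure D3:**
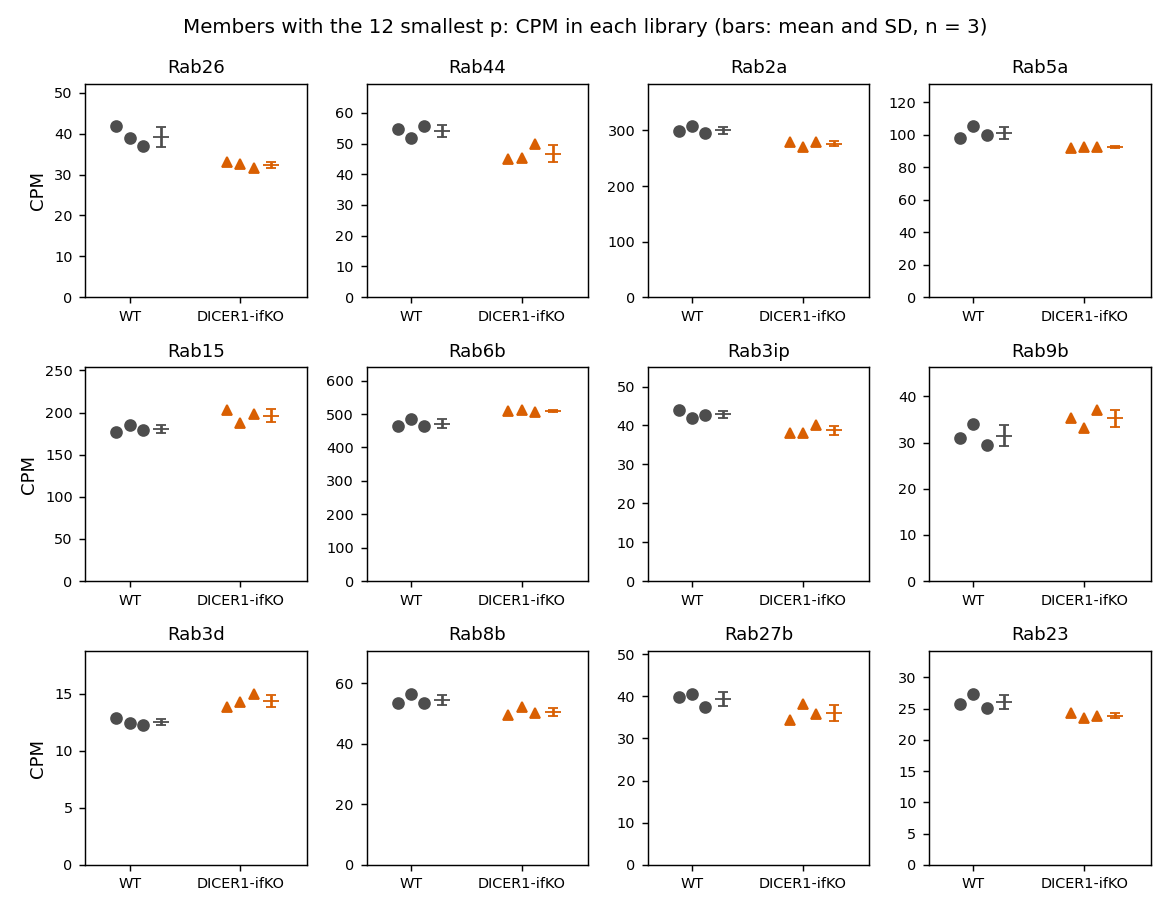
CPM (vertical axes, each starting at 0) in every library for the 12 Rab-named genes with the smallest p, with WT as circles and DICER1-ifKO as triangles in the order of replicates 1, 2 and 3, and the mean with SD (n = 3) beside them. Rab26, at 37.0 to 41.8 CPM in WT and 31.7 to 33.1 CPM in DICER1-ifKO, has the widest relative gap between the groups of the 12 shown; Rab9b and Rab27b overlap.

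Of the 2 exchange factors with Rab names, 1 was lower in each DICER1-ifKO library. Rab3ip (Rabin8), which activates Rab8 on the way to the cilium, was at 43.9, 41.9 and 42.6 CPM in WT and 38.1, 38.1 and 40.1 CPM in DICER1-ifKO, lower in each DICER1-ifKO library, with a log2 difference of -0.14 (SE 0.061, adjusted p = 0.416). Its relative Rab3il1 was at 7.88 CPM on average in WT, with a log2 difference of 0.01.

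At the level of transcripts, 202 were listed for the 59 genes and 189 were tested, with 0 called at an adjusted p of 0.05 beside 0.0777% of 60500 transcripts, and 22 (11.6%) at an unadjusted p under 0.05 beside 9.44%. Transcripts of a gene were counted over shared exons and are not independent. In 21 of the 33 genes with more than 1 tested transcript all had the same sign, Rab26 (5 transcripts), Rab15 (8) and Rab3d (5) among them. Short Rab15 transcripts that lack the distal 3′ UTR separated WT replicate 1 from the rest: Rab15-002 had 442 counts there, against 862 and 803 in the other WT libraries and 920, 925 and 1113 in DICER1-ifKO. The full-length Rab15-001 had 2077 counts in that library, 2940 and 2918 in the other WT libraries and 3123, 3387 and 4057 in DICER1-ifKO, so that WT replicate 1 was lower for the short form than for the long one relative to the other libraries. The widest range of log2 fold changes within a gene was that of Rab3d, from 0.19 to 0.73, whose upper end, Rab3d-003, had 9 to 32 counts per library.

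The genes that run the Rab cycle were examined from lists of 9 prenylation and GDP dissociation factors, 34 exchange factors, 38 GTPase-activating proteins and 60 effectors, of which 9, 34, 38 and 58 were tested; the exchange factor list holds Rab3ip and Rab3il1. A single gene of these lists passed the test. Sbf1, a DENN-domain exchange factor also known as a myotubularin-related pseudophosphatase, was at 199.8, 195 and 215 CPM in WT and 253, 234 and 249 CPM in DICER1-ifKO. It rose in DICER1-ifKO, above WT in every library, with a log2 difference of 0.27 (SE 0.049, adjusted p = 0.0173). The call was lost without DICER1-ifKO replicate 1 (adjusted p = 0.246), without DICER1-ifKO replicate 3 (0.0589) and on counts summed over transcripts (0.202). Of the exchange factors, 7 of 34 (20.6%, beside 10.4% of all genes) had an unadjusted p under 0.05, 6 of them higher, and 19 were positive (55.9%, beside 49.0%), with a median of 0.03. Dennd1b, an exchange factor of Rab35, was at 17.0, 18 and 21.7 CPM in WT and 23.4, 22.0 and 22.8 CPM in DICER1-ifKO, with a log2 difference of 0.25 (SE 0.088, adjusted p = 0.293). Fam116b (Dennd6b) was higher in each DICER1-ifKO library by 0.14 (SE 0.057, adjusted p = 0.371), and Hps1, a subunit of the exchange factor of Rab32 and Rab38, overlapped at 0.25 (SE 0.10, adjusted p = 0.385).

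Effectors and GTPase-activating proteins had no call. Of 58 effectors, 6 had an unadjusted p under 0.05, all higher (10.3%, beside 10.4% of all genes), and 38 were positive (65.5%, beside 49.0%). Rims3 and Rims4 led them. Both are short RIM proteins of the presynaptic active zone that keep a C2 domain and lack the Rab3-binding part of Rims1 and Rims2. The counts of the effector list thus include these 2 as relatives of Rab3 effectors, and not as genes whose proteins bind Rab3 themselves. Rims3 was at 31.2, 35.9 and 34.4 CPM in WT and 42.5, 47.5 and 38.4 CPM in DICER1-ifKO, higher in each DICER1-ifKO library, with a log2 difference of 0.33 (SE 0.077, adjusted p = 0.0994). Its adjusted p fell below 0.05 with no filter on low counts (0.00511), without WT replicate 2 (0.0432) and without DICER1-ifKO replicate 3 (0.0308). Rims4 was at 28.7, 32.0 and 32.1 CPM in WT and 35.6, 37.0 and 36.6 CPM in DICER1-ifKO, with a log2 difference of 0.23 (SE 0.067, adjusted p = 0.195). Appl2, an effector of Rab5, and Plekhm1, an effector of Rab7, had 0.14 (SE 0.057, adjusted p = 0.372) and 0.20 (SE 0.084, adjusted p = 0.397), with overlapping libraries. Of 38 GTPase-activating proteins, 2 had an unadjusted p under 0.05 (5.26%, below the 10.4% of all genes), and 28 were positive (73.7%, beside 49.0%). The smallest p were those of Sgsm1 at 0.12 (SE 0.054, adjusted p = 0.426) and Tbc1d9b at 0.11 (SE 0.048, adjusted p = 0.447). Both were higher in each DICER1-ifKO library, as was Tbc1d5 at 0.13 (SE 0.067, adjusted p = 0.504), while Tbc1d8, at 0.19 (SE 0.095, adjusted p = 0.518), overlapped.

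The 9 factors of prenylation and membrane extraction were centred below 0, with 7 negative, beside 51.0% of all genes. Their median log2 fold change was -0.05, beside -0.03 for the Rab-named genes. Arl6ip5, a small membrane protein related to the prenylated Rab acceptor, was at 79.2, 83 and 82.2 CPM in WT and 75.8, 75.2 and 75.1 CPM in DICER1-ifKO, lower in each DICER1-ifKO library, with a log2 difference of -0.11 (SE 0.050, adjusted p = 0.423). Gdi2, which extracts GDP-bound Rabs from membranes, Rabggtb, a subunit of the geranylgeranyl transferase, and Rabif, a chaperone of nucleotide-free Rabs, overlapped between genotypes, with log2 differences of -0.04, -0.06 and -0.08.

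**Figure D4:**
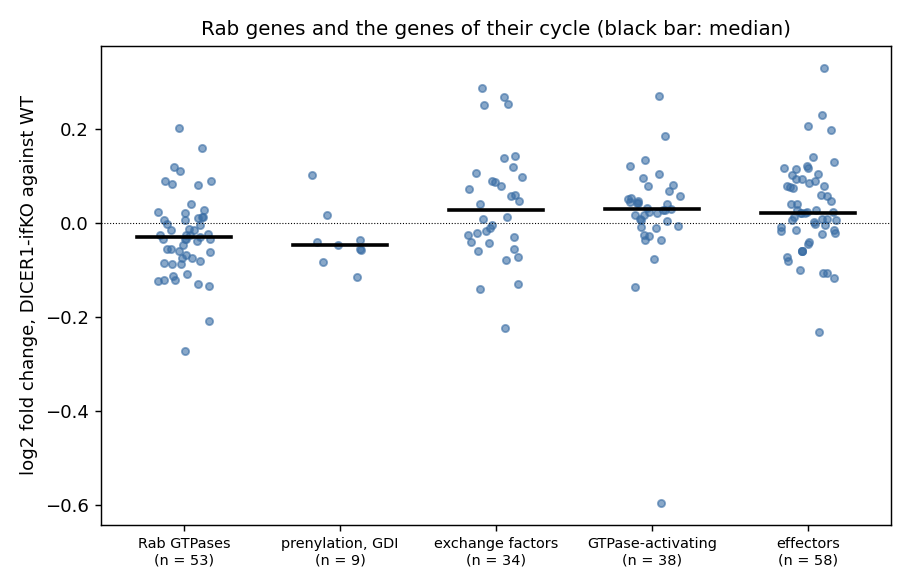
Log2 fold change of DICER1-ifKO against WT (vertical axis, edgeR) for the 53 tested Rab GTPases and for the tested genes of 4 lists of the Rab cycle, 1 point per gene, with the median as a black bar. The medians are -0.03 for the GTPases, -0.05 for prenylation and GDP dissociation factors, 0.03 for exchange factors, 0.03 for GTPase-activating proteins and 0.02 for effectors; the lowest point, Tbc1d10c, is at 0.519 to 1.48 CPM.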

How the data were processed

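Per the labels' protocols, a stranded mRNA kit was used on DNase-treated total RNA, which was sequenced on an Illumina HiSeq instrument. Per the submitters' processing notes, the tools were TopHat2 2.0.6 and Bowtie2 2.0.5, with SAMtools 0.1.18, CASAVA 1.8.2 and DESeq2, on GRCm38 and mm10; how reads were counted, and whether by strand, is not given in the sources used here. The deposited files hold raw counts for 76938 transcripts, per the file headers, and a normalised signal that equals the deposited count divided by 1 factor per library and was not tested here. The design assumed counts per gene; because transcripts share reads, the most counted transcript stands for its symbol. Overlapping genes on either strand were treated as not separable.

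Counts were tested with R 4.3.3 and edgeR 4.0.16 (TMM, quasi-likelihood F-test, filterByExpr with a minimum count of 10, prior count of 0.125, genotype as the only term) and Benjamini-Hochberg adjustment over 17405 genes at 0.05, after a test on simulated data; alternatives, among them DESeq2 1.42.0, are in the closing section. Libraries are labelled biological replicates, and no pair within a genotype agreed within sampling noise (chi-square per degree of freedom 1.76 to 4.36). The common biological coefficient of variation was 0.0464. Lengths and 3′ UTRs come from GENCODE M21 (84.2% of transcripts had identical coordinates; 36 of 59 members did, and 23 took the nearest transcript of the gene), and mature microRNAs from RefSeq (14 of 15 matched). Values per library are given for the 12 members with the smallest p, the 2 with the highest CPM per kilobase in each role and the Rab3 genes, and, of each list of regulators, for called genes and up to 4 with the smallest p. The members and lists were chosen with earlier results of these data known. Intervals are at 95%, and floors of 3 counts cover counting error only.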

Additional observations from a re-analysis of the deposited data

How the results depend on the processing

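The members called remained 0 under every alternative run except that with no filter on low counts, which called 1 (Rab26), and their median log2 fold change kept its sign in all 13, from -0.04 to -0.02. Over all genes, 28 were called, with 80 by DESeq2, 151 with no filter, 7 on counts summed over transcripts and 6 to 105 on leaving out 1 library (18 without WT replicate 1, 105 without WT replicate 2, 14 without WT replicate 3, 6, 18 and 26 without DICER1-ifKO replicates 1, 2 and 3). Of the Rab regulators and effectors 1 was called, with 2 under no filter, 0 on summed counts and 0 to 2 on leaving out 1 library. Signs turned for differences near 0. After correction for transcript length and GC content, Rab11b came to 0.0083, Rab28 to 0.0015 and Rab3c to -0.049. On leaving out 1 library, Rab11b ran from -0.055 to 0.020, Rab24 from -0.018 to 0.12, Rab3b from -0.17 to 0.15, Rab3c from -0.020 to 0.046, Rab7 from -0.067 to 0.00094 and Rabif from -0.14 to 0.011. Of 519 values of single named genes under the alternatives, 498 had an adjusted p, and 478 of these kept direction and side of the threshold; the other 21, from DESeq2 without an adjusted p, kept direction. The 9 members with an unadjusted p under 0.05 all kept their sign in the 13 alternatives. Replicate numbers did not pair the libraries: deviations of same-numbered libraries correlated at -0.068, 0.0279 and -0.0864, and not every library correlated best with its own number; a fit with the replicate number as a block called 22 genes and 0 members. The cause of these changes was not tested. Depth limits Rab38, Rab32, Rab7l1 and Rab13, all below 5 CPM, and the 4 untested members.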

Other observations

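Small GTPases outside the Rab naming rule were read beside the family; the list was made after the files had been seen. Ran, which drives transport through nuclear pores, was at 131, 125 and 129 CPM in WT and 113, 109 and 121 CPM in DICER1-ifKO, lower in each DICER1-ifKO library, with a log2 difference of -0.16 (SE 0.050, adjusted p = 0.229). Rabl5, a component of intraflagellar transport, was at 25.4, 23.0 and 25.2 CPM in WT and 22.3, 21.6 and 21.7 CPM in DICER1-ifKO and also lower in each DICER1-ifKO library, with a log2 difference of -0.16 (SE 0.075, adjusted p = 0.46). Rheb, Rabl2, Ift27 and Rabl3 overlapped between genotypes, with log2 differences of -0.07, -0.10, -0.06 and 0.07.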
